A study of Mus musculus with 13 samples.

Results

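Goblet cell mucus genes are described here in colorectal tumors and in normal colorectal tissue of mice. The set holds 10 genes: Muc2, Fcgbp, Clca1, Zg16, Agr2, Tff3, Spink4, Ang4, Retnlb and Sytl2. They were taken by name from the array's own probe annotation, and they are 10 of the 25451 genes that passed the filter on dim signals. Each gene had 1 probe, and all 10 probes were well above background on all 13 arrays, saturated on none and kept by the filter. The probe of Clca1 carries the older symbol Clca3 in the files and was found through its RefSeq accession, since the probe that the files call Clca1 belongs to the paralog now named Clca3a1.

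All mice were CPC-Apc mice (CDX2P-NLS Cre;Apc+/loxP), in which a Cdx2-driven Cre recombinase deletes 1 allele of the tumor suppressor Apc, so both groups of mice share that deletion. It occurs where the Cdx2 promoter is active. One group of mice was given both strands of miR-369 (-3p and -5p), the a, b, c and d forms of miR-302, and miR-200c, at 25 µg each, and the other a matching amount of negative control miRNA. Both were carried by super carbonate apatite with albumin into the tail vein, with 24 doses in all, 3 every week, starting at an age of 8 weeks. Titles of the control arrays say CPC-Apc mice and a description field NC or NC-P, so dosing of these mice with the negative control is taken from the treatment protocol. The 13 arrays fall into tumors of microRNA mice (2), tumors of control mice (7), normal tissue of microRNA mice (2) and normal tissue of control mice (2). The labels tie no sample to an animal. Several tumors may come from 1 mouse, and p-values then cover only the spread among these samples, which may be partly technical.

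Goblet cells are the secretory epithelial cells of the gut that make mucus. They fill granules with the gel-forming mucin Muc2 and with proteins that crosslink, process or travel with it, and release them onto the epithelium, where the gel keeps bacteria away from the cells. In the colon the inner mucus layer is built mostly from Muc2, and goblet cells also secrete trefoil peptides, protease inhibitors and antimicrobial proteins. Whole tissue was measured, so fewer goblet cells and less RNA per goblet cell cannot be told apart.

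Strands of the injected microRNAs are shown because their sequence defines the treatment. The mature sequences are from RefSeq on GRCm38.p6, 5′ to 3′, with the seed, bases 2 to 8, in capitals. The labels do not name the arm for miR-200c and miR-302, and the 3p arm is printed for them. The strands miR-302b-3p and miR-302d-3p share the seed AAGUGCU, and miR-302a-3p is not shown.
mmu-miR-200c-3p: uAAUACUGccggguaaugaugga
mmu-miR-302b-3p: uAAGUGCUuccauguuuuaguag
mmu-miR-302c-3p: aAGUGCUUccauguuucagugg
mmu-miR-302d-3p: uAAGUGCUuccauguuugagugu
mmu-miR-369-3p: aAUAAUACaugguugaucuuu
mmu-miR-369-5p: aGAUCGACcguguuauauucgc

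A level here is the log2 processed signal of a probe minus the log2 of the 75th percentile of its array, so 1 unit is a doubling, and levels of different genes cannot be set against each other. The 75th percentile was 414.779 to 739.551 on the 9 tumor arrays and 213.93 to 319.594 on the 4 normal arrays, so array brightness went with tissue. Scaling made these percentiles equal but need not remove every difference in intensity between the tissues. Of all genes called between tumors and normal tissue, 37.3% were higher in tumors, against 51.7% with quantile normalization. Slide 1 held 8 arrays and slide 2 held 5, with both control normals and control tumor 3 on slide 2, and the second principal component (16.12% of variance) separated the slides. The epithelial marker list (10 of 10 genes well above background on all arrays) had mean levels of 5.50 to 6.40 in tumors and 6.27 to 6.88 in normal tissue, so epithelial RNA was present in every sample.

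The first comparison set the 9 tumors against the 4 normal samples over both groups of mice, in a model with a term for the group of mice. Its differences are therefore adjusted for that group and are not those of the plain means. Ang4, Clca1 and Tff3 fell in tumors, by 6.11-fold, 8.83-fold and 2.39-fold. The other mucus genes did not pass the adjusted threshold of 0.05, although Muc2, Fcgbp, Zg16, Agr2 and Retnlb had differences of -2.95 to -0.996 (log2), while the adjusted differences of Spink4 and Sytl2 were -0.18 and 0.06. With 3 of 10 genes called, all lower, against 31.4% of all genes called in either direction and 19.7% called lower, the share of mucus genes called lay close to that of the array as a whole. The median difference was -1.40 for the 10 genes, against -0.11 for all genes. Of the 10, 7 had an unadjusted p under 0.05, as did 44.0% of all genes. Of the 10 epithelial markers, 5 were called lower and 0 higher (median -0.64). In the colonocyte list 8 of 10 measured genes were called lower (median -3.50), and in the enteroendocrine list 5 of 8 (median -1.83), with 0 higher in either. Of 7 Paneth genes, 2 were called higher and 1 lower (median 2.69). The part of these cells in the mucus gene values was not tested.

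**Figure D1:**
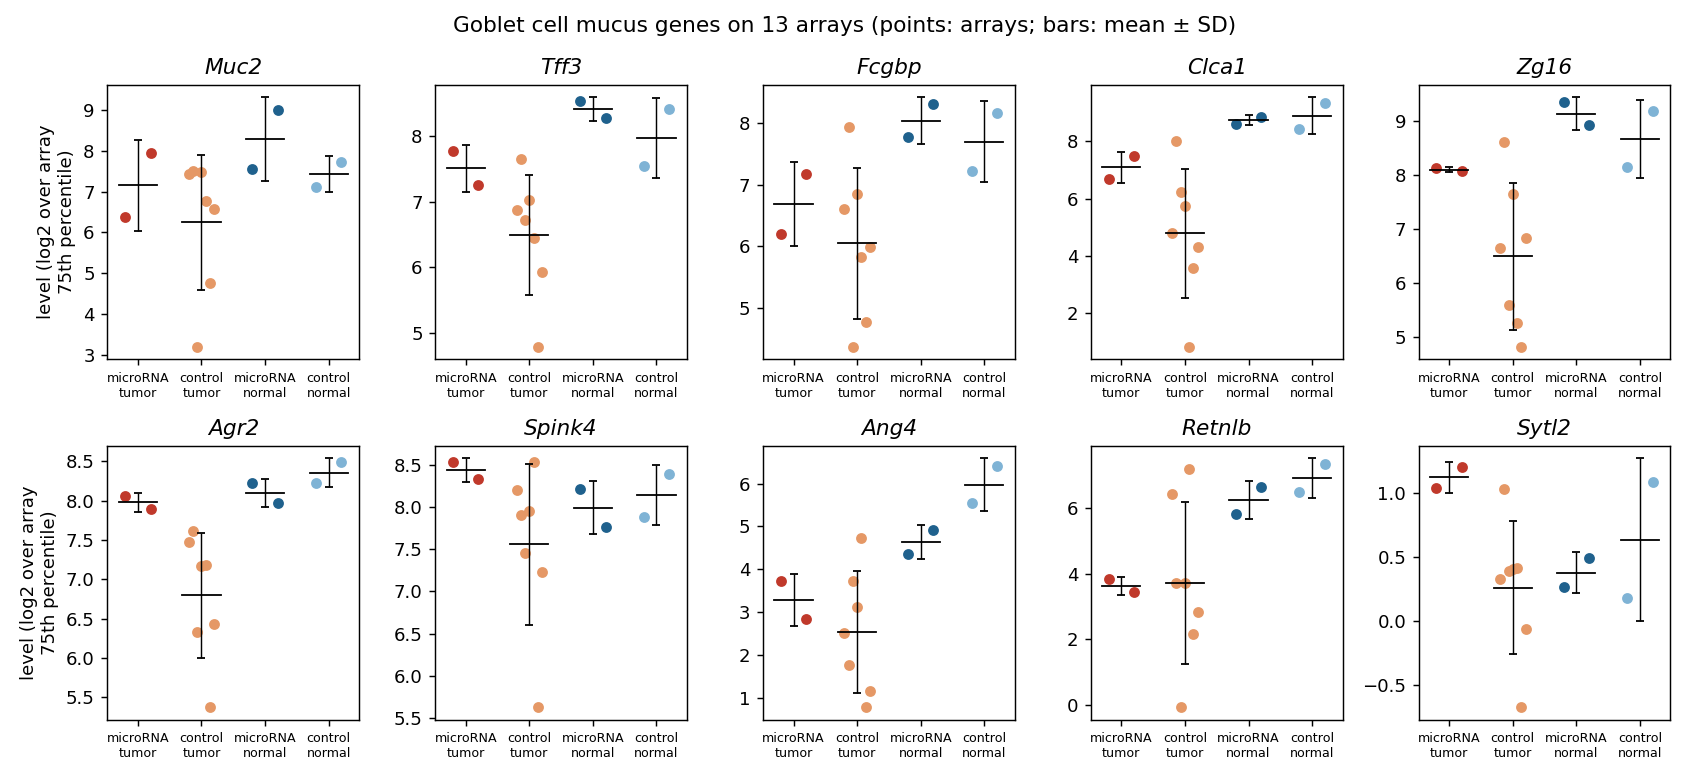
Level of each of the 10 genes (y axis, log2 signal over the 75th percentile of the array) on the 13 arrays, in tumors of microRNA mice (2), tumors of control mice (7), normal tissue of microRNA mice (2) and normal tissue of control mice (2). Points are arrays and bars the mean ± SD, and each gene has its own axis. Clca1 was the gene whose 9 tumors (0.84 to 7.99) all lay below its 4 normal samples (8.44 to 9.34), and Spink4 and Sytl2 overlapped widely.

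The proteins that build and process the mucus gel come first. Muc2 is the gel-forming mucin itself. Its probe lies at chr7:148940000-148940059 on the plus strand of mm9, and the probe sequences of Muc2, Fcgbp and Zg16 are given because they say which stretch of each transcript was measured.
Muc2 probe: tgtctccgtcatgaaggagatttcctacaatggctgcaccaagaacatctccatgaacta
Fcgbp probe: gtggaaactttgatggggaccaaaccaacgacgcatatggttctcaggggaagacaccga
Zg16 probe: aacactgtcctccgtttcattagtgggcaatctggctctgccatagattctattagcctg
Muc2 stood at 6.37 and 7.95 in the tumors of microRNA mice and at 3.20, 6.76 and 7.51 (lowest, median and highest) in the 7 tumors of control mice. Normal tissue had 7.56 and 9.01 in microRNA mice and 7.13 and 7.74 in control mice. MicroRNA tumor 2 and control tumors 1, 2 and 4 lay within the normal range of Muc2, and control tumors 3 and 6, at 3.20 and 4.77, stood far below it. The difference was -1.16 (SE 0.77, limma adjusted p = 0.263), with a 95% interval of -2.83 to 0.51.

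Fcgbp, a large mucus protein rich in von Willebrand factor D domains that is secreted with Muc2, has its probe at chr7:28905517-28905576 (plus strand, mm9). Its tumor levels were 6.20 and 7.17 in microRNA mice and 4.36, 5.98 and 7.93 in control mice, against 7.77 and 8.31 in normal tissue of microRNA mice and 7.23 and 8.16 in that of control mice. Every tumor but control tumor 2 lay below every normal sample, and control tumor 3 was again the lowest. Fcgbp differed by -1.54 (SE 0.57, limma adjusted p = 0.0563), just short of the threshold.

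Clca1 is a secreted metalloprotease that acts on Muc2 in the mucus, and its probe lies at chr3:144667558-144667617 (minus strand, mm9). Tumors of microRNA mice had 6.69 and 7.48 and tumors of control mice 0.84, 4.80 and 7.99, whereas normal tissue had 8.61 and 8.85 in microRNA mice and 8.44 and 9.34 in control mice. No tumor reached the lowest normal sample, which also held for 10.5% of all genes in this direction. Among the 10 genes Clca1 had the largest fall, -3.14 (SE 1.05, limma adjusted p = 0.0376). The call ended with quantile normalization (-2.58, adjusted p = 0.0839), with the file name number as a random block (-2.65, 0.0555) and when microRNA normal 1, microRNA tumor 1, control normal 1, control normal 2, control tumor 6 or control tumor 7 was left out, with limma adjusted p of 0.0522 to 0.164.

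Zg16 is a small lectin-like protein that binds the cell wall of Gram-positive bacteria, and its probe lies at chr7:134193837-134193896 (minus strand, mm9). It stood at 8.12 and 8.07 in the tumors of microRNA mice and at 4.83, 6.66 and 8.61 in those of control mice, against 9.34 and 8.92 in normal tissue of microRNA mice and 8.15 and 9.17 in that of control mice. All tumors but control tumor 2 lay below the lowest normal sample, the microRNA tumors by under 0.1. The difference was -1.73 (SE 0.63, limma adjusted p = 0.0526). Both near misses passed under a minority of other settings, each in 6 of 24 alternatives. Their limma adjusted p over the alternatives reached 0.245 for Fcgbp and 0.223 for Zg16. Without control tumor 2 Fcgbp reached -1.72 (adjusted p = 0.0199) and Zg16 -1.93 (adjusted p = 0.0193), and without control tumor 4 Zg16 also passed (adjusted p = 0.0498). With all arrays, Zg16 passed with normexp background correction (limma adjusted p = 0.0395), and both genes passed with no filter on dim probes (0.0498 for Fcgbp and 0.0465 for Zg16).

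Agr2, a protein disulfide isomerase of the endoplasmic reticulum that mice need to produce Muc2, has its probe at chr12:36730506-36730565 (plus strand, mm9). Tumor levels were 8.06 and 7.89 in microRNA mice and 5.37, 7.16 and 7.62 in control mice, and normal levels 8.22 and 7.97 in microRNA mice and 8.23 and 8.49 in control mice. The normal samples lay close together and the control tumors below all of them, while microRNA tumor 1 lay among them. Agr2 differed by -0.996 over both groups of mice (SE 0.41, limma adjusted p = 0.0826).

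Tff3 and Spink4 are small peptides secreted with the mucin. Tff3, a trefoil peptide that binds mucin and aids epithelial repair, has its probe at chr17:31262279-31262338 (minus strand, mm9). It stood at 7.77 and 7.26 in tumors of microRNA mice and at 4.79, 6.73 and 7.64 in tumors of control mice, against 8.54 and 8.28 in normal tissue of microRNA mice and 7.54 and 8.41 in that of control mice. Control tumor 2 and microRNA tumor 1 lay just above control normal 1, the lowest normal sample, and the other 7 tumors lay below all 4. Tff3 fell by 1.26 on the log2 scale (SE 0.44, limma adjusted p = 0.0448). This call ended when any of 8 arrays was left out (both microRNA normals, microRNA tumor 2, both control normals and control tumors 4, 5 and 7), with limma adjusted p of 0.0507 to 0.200, and also with quantile normalization (-0.72, 0.207) or median scaling (-1.15, 0.0794).

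Spink4, a Kazal-type serine protease inhibitor of goblet cells, has a probe that joins separate stretches of the genome within chr4:40876206-40878330 (plus strand, mm9). It is printed with that of Ang4, the gene with the smallest adjusted p.
Spink4 probe: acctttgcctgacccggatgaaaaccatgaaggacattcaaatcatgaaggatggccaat
Ang4 probe: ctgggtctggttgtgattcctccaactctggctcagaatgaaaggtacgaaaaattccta
Spink4 had 8.54 and 8.33 in tumors of microRNA mice and 5.63, 7.90 and 8.53 in tumors of control mice, against 8.22 and 7.77 in normal tissue of microRNA mice and 7.89 and 8.39 in that of control mice. Tumors and normal samples overlapped, and control tumor 6 alone stood far below. The difference of -0.18 (SE 0.46, limma adjusted p = 0.780) turned to 0.41 with quantile normalization.

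Ang4 and Retnlb are antimicrobial products. Ang4, a ribonuclease of the angiogenin family that kills bacteria and is made by Paneth and goblet cells of mice, has its probe at chr14:52384066-52384125 (minus strand, mm9). Tumor levels were 3.73 and 2.86 in microRNA mice and 0.79, 2.51 and 4.74 in control mice, and normal levels 4.35 and 4.92 in microRNA mice and 5.54 and 6.41 in control mice. Control tumor 5 lay within the range of the normal samples and the other 8 tumors below all of them. Ang4 fell by 2.61 (SE 0.70, limma adjusted p = 0.0161), and the call ended without control normal 1 (adjusted p = 0.0604) or control normal 2 (adjusted p = 0.0939).

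Retnlb, the resistin-like molecule beta that goblet cells secrete and that acts on bacteria and worms, has its probe at chr16:48818874-48818933 (plus strand, mm9). It had 3.82 and 3.44 in tumors of microRNA mice and -0.06, 3.73 and 7.17 in tumors of control mice, against 5.82 and 6.64 in normal tissue of microRNA mice and 6.47 and 7.33 in that of control mice. Control tumors 1 and 5, at 6.43 and 7.17, sat within the normal range and the other 7 tumors well below it. The difference of -2.95 (SE 1.08, limma adjusted p = 0.0542) passed when control tumor 1 (adjusted p = 0.0301), control tumor 3 (0.0372) or control tumor 5 (0.0199) was left out. Retnlb was called in 9 of 24 alternatives, with limma adjusted p up to 0.175.

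Sytl2, a synaptotagmin-like protein that tethers secretory granules to the cell membrane, is the only member that acts inside the cell on granule release. Its probe lies at chr7:97558507-97558566 (plus strand, mm9). Sytl2 stood at 1.03 and 1.20 in tumors of microRNA mice and at -0.67, 0.39 and 1.03 in tumors of control mice, against 0.26 and 0.49 in normal tissue of microRNA mice and 0.18 and 1.08 in that of control mice. The groups overlapped, and Sytl2 averaged 0.45 ± 0.59 (SD, n = 9) in tumors and 0.50 ± 0.41 (SD, n = 4) in normal tissue. The difference adjusted for the group of mice was 0.06 (SE 0.31, limma adjusted p = 0.890), of the opposite sign to that of these means and far within its error.

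Slides bear on these calls, since control normal tissue was hybridised on slide 2 only. With the slide as a block, Ang4 (-2.06, limma adjusted p = 0.0598), Clca1 (-2.64, 0.113) and Tff3 (-1.05, 0.127) lost their calls. Muc2 (-2.19, adjusted p = 0.0299), Fcgbp (-2.05, 0.0246) and Retnlb (-3.79, 0.0327) then passed. Within slide 2 alone, where control tumor 3 and microRNA tumor 1 are the only tumors, Clca1 (-2.34, adjusted p = 0.0292) and Fcgbp (-2.58, 0.0443) passed in a fit with 2 residual degrees of freedom. Slide 1 held no control normal tissue, so it gave no value over both groups of mice.

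The next question was whether the mucus genes differed in each group of mice. In control mice Ang4 fell by 3.43 (limma adjusted p = 0.0224), Clca1 by 4.10 (0.0489) and Agr2 by 1.56 (0.0436), and all 10 genes were lower on average. These 3 of 10 genes stand beside 19.1% of all genes called in this contrast and 10.9% called lower. In the same 3 genes all 7 control tumors lay below both control normals, as in 18.9% of all genes. Zg16 (-2.17, adjusted p = 0.0773), Tff3 (-1.49, 0.0837), Retnlb (-3.18, 0.128), Fcgbp (-1.65, 0.133) and Muc2 (-1.18, 0.416) did not pass.

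These calls rest on 2 control normals. Without control normal 1 or control normal 2 none was left, with limma adjusted p of 0.118 and 0.180 for Ang4, 0.177 and 0.248 for Agr2 and 0.179 and 0.272 for Clca1. Clca1 kept its call only without control tumor 2, 3 or 5 (adjusted p of 0.0567 to 0.272 without any of the others), and Agr2 only without control tumor 1, 2, 3, 5 or 6 (0.0546 to 0.248 without any of the others). Without control tumor 2, Tff3 (adjusted p = 0.0489) and Zg16 (0.0268) passed too. With the slide as a block, Muc2 alone was called (-3.29, adjusted p = 0.0468). Within slide 2 the only control tumor is number 3, the lowest tumor for Muc2, Fcgbp and Retnlb. Set against both control normals it gave differences of -6.96 for Retnlb, -4.23 for Muc2, -3.33 for Fcgbp, -3.06 for Zg16, -2.66 for Clca1 and -2.03 for Agr2. These had limma adjusted p of 0.0117 to 0.0411 in a fit with 1 residual degree of freedom, in which the lone tumor is assumed to vary like the control normals, so they say little about control tumors in general.

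In microRNA mice none of the 10 genes was called by limma, against 3.1% of all genes. None had an unadjusted p under 0.05, against 22.5% of all genes. Differences ran from -2.60 for Retnlb and -1.65 for Clca1 to 0.44 for Spink4 and 0.74 for Sytl2, and that of Agr2 was -0.12 (95% interval -1.44 to 1.20). With 2 samples on each side, both tumors lay below both normal samples for Tff3, Fcgbp, Clca1, Zg16, Ang4 and Retnlb, or 6 of 10 against 33.1% of all genes. They lay above both for Spink4 and Sytl2, or 2 of 10 against 20.4%. In these mice each slide held 1 tumor and 1 normal sample, which also share a replicate number and a file name number. With that pair as a block in a fit of these 4 arrays, with 1 residual degree of freedom, Clca1 (-1.65, limma adjusted p = 0.0404) and Retnlb (-2.60, 0.0320) passed, beside 9.74% of all genes. Comparisons of tumors with normal tissue and of microRNA with control mice share arrays. The tumor effect was less negative or more positive in microRNA mice for all 10 genes, by 0.06 (Muc2) to 2.46 (Clca1). No such difference was called in limma's interaction test (0.283% of all genes were) or had an unadjusted p under 0.05 (6.2% of all genes had).

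**Figure D2:**
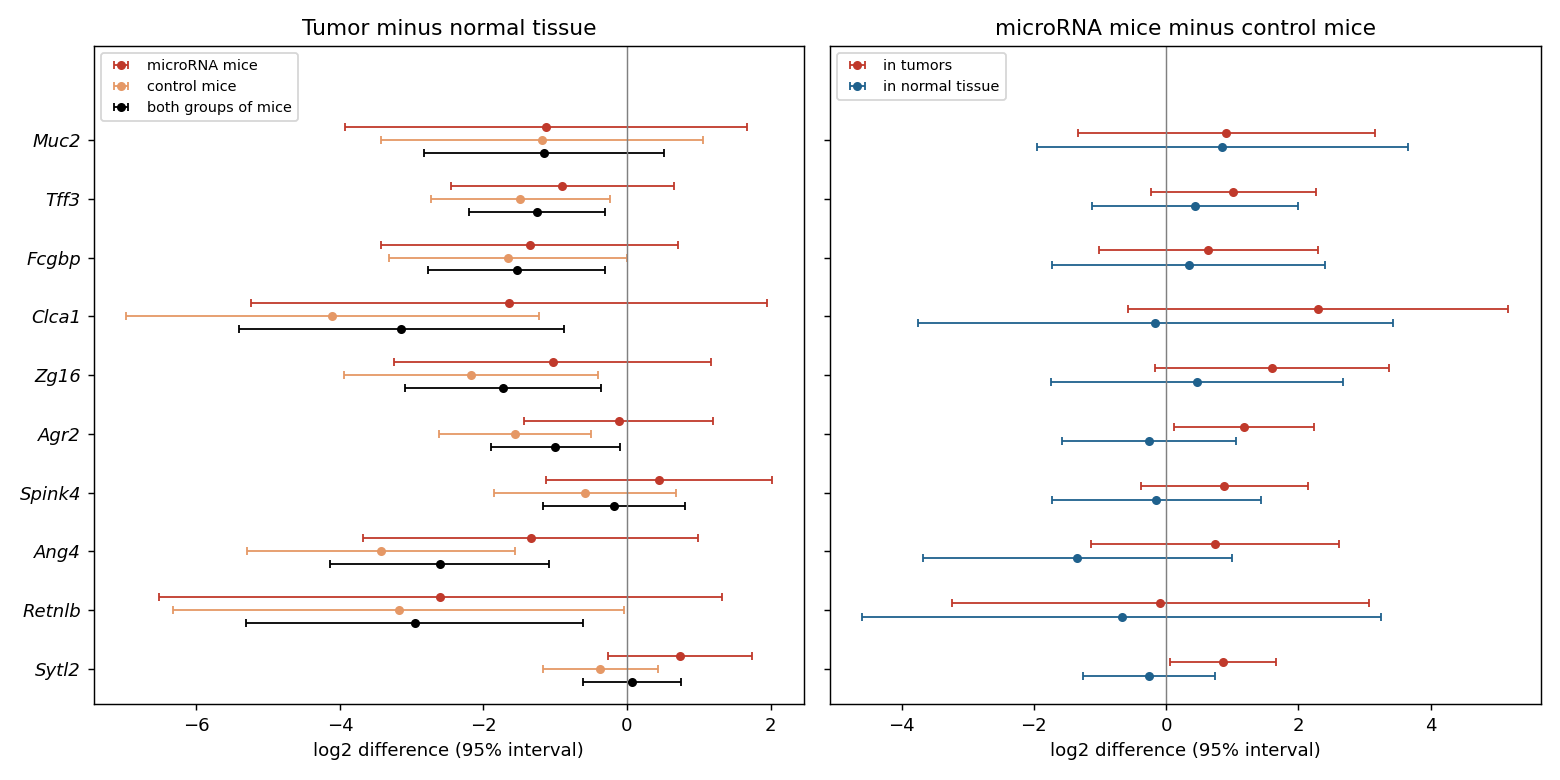
Log2 differences of the 10 genes with 95% intervals from limma, on the left tumor minus normal tissue in microRNA mice, control mice and both, and on the right microRNA mice minus control mice in tumors and in normal tissue. Over both groups of mice the unadjusted intervals of 7 genes (Tff3, Fcgbp, Clca1, Zg16, Agr2, Ang4 and Retnlb) lie below 0, and in microRNA mice alone every interval crosses 0.

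The study's own question was what the microRNAs change, first in tumors. Levels of 9 of the 10 genes were higher on average in the 2 tumors of microRNA mice than in the 7 tumors of control mice, with a median difference of 0.89 against 0.00 for all genes, and none was called. Over the whole array 0.00393% of genes, a single gene, was called in this contrast. Clca1 averaged 7.08 ± 0.55 (SD, n = 2) in tumors of microRNA mice and 4.79 ± 2.26 (SD, n = 7) in tumors of control mice, a difference of 2.30 with a 95% interval of -0.58 to 5.18. For Zg16 the difference was 1.60 (-0.17 to 3.38) and for Tff3 1.02 (-0.23 to 2.27). Agr2 (1.18, limma unadjusted p = 0.0315) and Sytl2 (0.86, limma unadjusted p = 0.0384) were the 2 genes whose microRNA tumors both lay above all 7 control tumors, which held for 1.22% of all genes, and both had an adjusted p of 0.9995. For Sytl2 the gap was narrow, with 1.034 in microRNA tumor 1 and 1.030 in control tumor 2.

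Agr2 in the microRNA tumors (8.06 and 7.89) lay near normal tissue of the same group of mice (8.22 and 7.97), while the 7 control tumors ended at 7.62. Retnlb did not follow, at 3.63 ± 0.27 (SD, n = 2) in tumors of microRNA mice and 3.71 ± 2.47 (SD, n = 7) in tumors of control mice. Its difference of -0.08 became 0.68 with the slide as a block and 3.89 within slide 2, where control tumor 3 is the only control tumor. Within slide 1, with 1 microRNA tumor against 6 control tumors, differences were 1.02 for Agr2, 0.96 for Sytl2 and 2.93 for Clca1, and within slide 2, with 1 against 1, they were 1.73, 0.65 and 0.46, none of them called.

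In normal tissue the microRNA samples differed from the control samples by -1.34 for Ang4, -0.67 for Retnlb and 0.85 for Muc2, and by less than 0.5 for the other 7 genes. None of the 10 was called (0.534% of all genes were), and none had an unadjusted p under 0.05 in limma's test (5.51% of all genes had). Agr2 and Ang4 were the 2 genes whose microRNA normals both lay below both control normals, as did 18.1% of all genes. The normal samples also differed in other ways. The small intestine list (7 measured genes) had mean levels of 2.51 and 1.66 in normal tissue of microRNA mice, with 7 genes well above background on both arrays, against -2.27 and -1.16 in that of control mice, with 4 or 5. The Paneth list, whose cells also make Ang4 in mice, stood at 5.21 and 4.05 in microRNA mice, against 0.64 and 1.69 in control mice. The squamous epithelium list stood at -3.97 and -4.34 in microRNA mice, with 3 and 2 of 8 genes well above background. In control mice it stood at 1.66 and -0.62, with all 8 well above background. MicroRNA normal 2, the normal sample with the highest Muc2 (9.01), also differed in Hoxb13, a homeobox gene of the distal colon. Its Hoxb13 level was -0.50, against 5.65 to 6.35 in the other normal samples. The part of these marker levels in the values of the mucus genes was not tested.

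Spread between tumors is given as a description. Over the 7 control tumors the SD of 9 of the 10 genes was above the upper quartile of all genes (0.66), with a median of 1.29 against 0.42. Retnlb (SD 2.47) and Clca1 (SD 2.26) varied most, and 99.7% and 99.5% of genes had a lower SD. Their highest and lowest control tumors differed 150.1-fold and 142.5-fold. Muc2 (SD 1.65) spanned 19.9-fold and Ang4 (1.42) 15.4-fold, whereas Agr2 (0.80) spanned 4.75-fold and Sytl2 (0.52), the one gene under the quartile, 3.25-fold. Without control tumor 6 the count of genes above the quartile was 6.

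**Figure D3:**
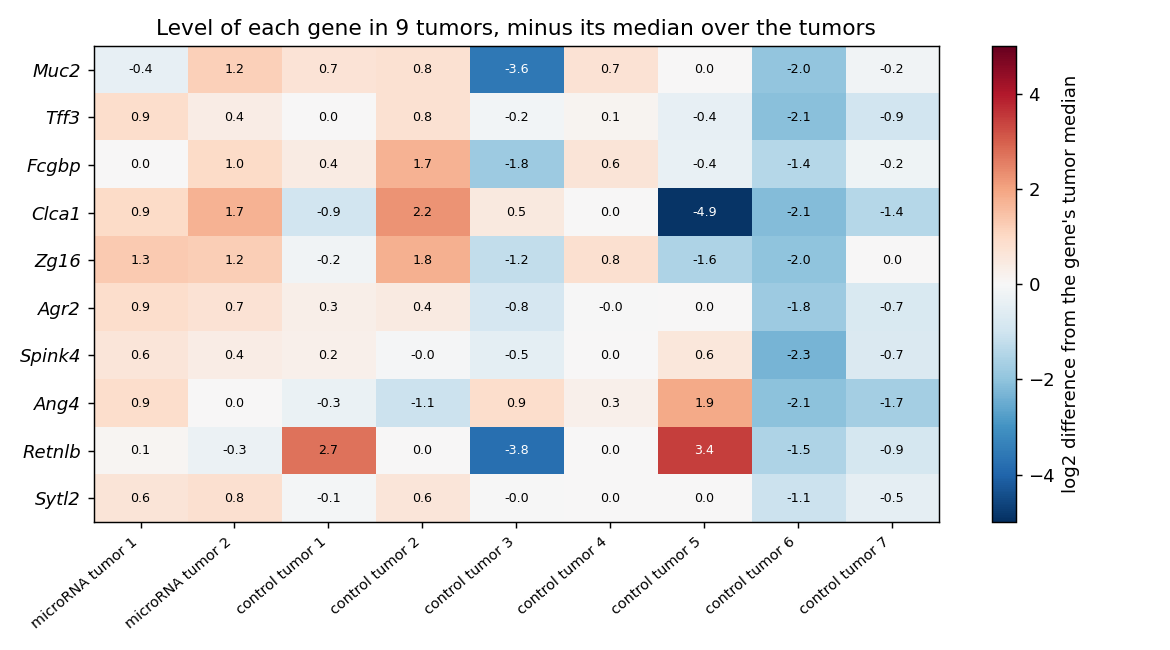
Level of each of the 10 genes in the 9 tumors minus the median of that gene over the tumors (log2, colour scale and printed values). Control tumor 6 is low in every row, control tumor 3 is low in Muc2 and Retnlb, and control tumor 5 combines the lowest Clca1 with the highest Retnlb and Ang4.

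The tumors differed in which genes were low. Control tumor 6 was the lowest of the 9 tumors for Tff3, Zg16, Agr2, Spink4, Ang4 and Sytl2, and among the lowest 3 for all 10 genes. Control tumor 3 was lowest for Muc2, Fcgbp and Retnlb, yet its Ang4 (3.73) and Clca1 (6.23) lay above their tumor medians. Control tumor 5 had the lowest Clca1 (0.84) together with the highest Retnlb (7.17) and Ang4 (4.74) of all tumors. Control tumor 2 was among the highest 3 for 7 genes and the highest for 3, and both microRNA tumors were among the highest 3 for 8 genes each.

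The file names of control tumors 4 to 7 carry the same number, which may mark 1 animal although no label says so. Among those 4 tumors Retnlb spanned 31.8-fold (2.18 to 7.17), Clca1 30.0-fold (0.84 to 5.74), Ang4 15.4-fold and Muc2 6.54-fold. Control tumors 1 and 2 share another number, and their Clca1 levels were 4.80 and 7.99 and their Retnlb levels 6.43 and 3.73. Control tumor 3 shares its number with control normal 2, and both were on slide 2.

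Markers of position and of other cells varied between the tumors as well. Hoxb13 was at -1.57 in control tumor 1 and not well above background at -4.53 in control tumor 5. It was at 6.17 to 6.63 in the other 7 tumors. Among normal samples it was low in microRNA normal 2 alone (-0.50), against 5.65 to 6.35 in the others. Control tumors 1 and 5 are the tumors with Retnlb in the normal range, and their colonocyte list means (5.10 and 4.51) were the highest of the tumors, against 0.71 to 3.95 in the others. Control tumors 6 and 3 had the lowest colonocyte means (0.71 and 1.04) and the lowest mean over the 10 mucus genes (3.60 and 4.40, against 4.72 to 6.17 in the other tumors). Their epithelial list means were 5.50 and 5.84, within 1 unit of the other tumors. Neutrophil markers (6 of 6 well above background in all tumors) had mean levels of 0.74 to 2.85 in tumors and -1.85 to -1.01 in normal tissue, and smooth muscle markers 0.34 to 3.1 in tumors and 3.69 to 4.90 in normal tissue. The part of position and of other cells in the mucus gene values was not tested.

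Other genes of the goblet cell pathway were taken as lists and compared over both groups of mice. Of 10 measured regulators of goblet cell fate, 2 were called higher, 1 lower and 7 not (median -0.50), near the 31.4% of all genes called in this comparison. Klf4, a zinc finger factor needed for goblet cell maturation in the mouse colon, fell to 3.98 ± 0.69 (SD, n = 9) in tumors, against 5.46 ± 0.13 (SD, n = 4) in normal tissue, a difference of -1.49 (limma adjusted p = 0.0103). Foxa1, a forkhead factor that binds the Muc2 gene, rose by 0.65 (adjusted p = 0.0217), and Sox9, a crypt base factor, by 0.77 (0.0339). Gfi1, a repressor that separates goblet from enteroendocrine fate, differed by -0.73 (adjusted p = 0.0586). Foxa1 lost its call without microRNA tumor 2 or either control normal (limma adjusted p up to 0.0717), and Sox9 without any array of microRNA mice, control normal 2 or control tumor 7 (up to 0.102). Gfi1 passed without control tumor 2 (0.0480) or control tumor 5 (0.0491).

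Of 16 measured enzymes that put sugars on mucins, 8 were called lower and none higher (median -0.63), beside 19.7% of all genes called lower. St6galnac1, which adds sialic acid to the first sugar of mucin chains, fell by 1.90 (limma adjusted p = 0.0045). B3gnt6, which makes the core 3 structure of colonic mucins, fell by 3.62 (0.0195), and Galnt7, which starts or extends chains, by 1.01 (0.0199). B4galnt2, which builds the Sda antigen, also fell (-2.13, 0.0228). Tumors had B3gnt6 levels of -1.23 ± 2.03 (SD, n = 9), against 2.47 ± 0.55 (SD, n = 4) in normal tissue. Control tumors 3 and 6 were the lowest at -4.29 and -3.73. Control tumors 1 and 5, with the highest colonocyte list means of the tumors, were the highest at 1.18 and 1.55. Their B4galnt2 levels (7.20 and 7.16) lay within the normal range (6.46 to 7.72), while their St6galnac1 and Galnt7 levels lay below all normal samples. The part of colonocytes in these falls was not tested. B3gnt6 lost its call without control normal 1 or 2, B4galnt2 without microRNA normal 1 or control normal 2, and Galnt7 without microRNA normal 1 or either control normal, with limma adjusted p up to 0.0867. Quantile normalization also ended the calls of Galnt7 (adjusted p = 0.0612) and B4galnt2 (0.0783).

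Of 21 measured genes of folding and granule release, 1 was called higher and 4 lower (median -0.41), beside 31.4% of all genes called and 19.7% called lower. Nlrp6, an innate immune sensor that mouse goblet cells need for mucus release, fell by 2.49 (limma adjusted p = 0.0190), the stomach and gut calpain Capn9 by 1.66 (0.0173) and the granule SNARE protein Vamp8 by 0.83 (0.0374). In control tumors 1 and 5 Nlrp6 stood at 1.63 and 1.58, within its normal range of 1.52 to 2.44. Capn9 and Vamp8 lay below all normal samples in these tumors. Nlrp6 (limma adjusted p = 0.0795) and Capn9 (0.111) lost their calls without control normal 2. Vamp8 lost its call without microRNA normal 1, microRNA tumor 2, either control normal, control tumor 4 or control tumor 7 (limma adjusted p up to 0.189), and with quantile normalization (0.0801) or median scaling (0.120).

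Of 8 other mucin genes, 2 were called higher and 1 lower, near the 31.4% of all genes called. The membrane mucin Muc1 was well above background in 8 of 9 tumors and in none of the 4 normal samples. It was at least 4.16-fold higher in tumors, a lower limit that was not tested. Muc1 passed the filter on dim signals through tumors alone, so its call as higher rests on undetected normal values. Leaving out any single array but control tumor 1 or 5 ended that call. Muc20 rose by 1.09 (limma adjusted p = 0.0136, but 0.0705 without control normal 1). Normexp background correction ended the calls of Muc1 (0.235) and Muc20 (0.165). Muc16 fell by 4.42 (0.0042), and Muc5b, the gel-forming mucin of airways, differed by -0.47 (0.136) and was well above background in 3 tumors and 1 normal sample.

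Among 18 measured paralogs of the mucus genes, 2 were called higher and 6 lower, beside 31.4% of all genes called and 19.7% called lower. Tff1, the stomach trefoil peptide, moved opposite to Tff3. It stood at -0.37 and -1.40 in tumors of microRNA mice and at -2.30 to -0.56 in tumors of control mice, against -6.78 to -4.10 in normal tissue. It was well above background in all 9 tumors and in none of the 4 normal samples. Tff1 was at least 11.3-fold higher in tumors, a lower limit that was not tested. It passed the filter on dim signals through tumors alone, so its call as higher rests on undetected normal values. The resistin family split as well. Retn, an adipocyte hormone in mice, fell by 4.61 (limma adjusted p = 0.00027) and Retnla also fell (-6.02, 0.0012), while Retnlg, a neutrophil product in mice, rose by 3.19 (0.0010). Retn was well above background in 6 and Retnla in 4 of 9 tumors, and Retnlg in 2 of 4 normal samples. The adipocyte list, which holds Retn itself, stood at -4.51 to -1.07 in tumors and 0.87 to 2.07 in normal tissue. Of its 7 genes, 1 to 5 were well above background in tumors of control mice and 2 or 3 in those of microRNA mice. In every normal sample 6 were, so the tumor means include undetected genes. The part of adipocytes and neutrophils in these changes was not tested.

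**Figure D4:**
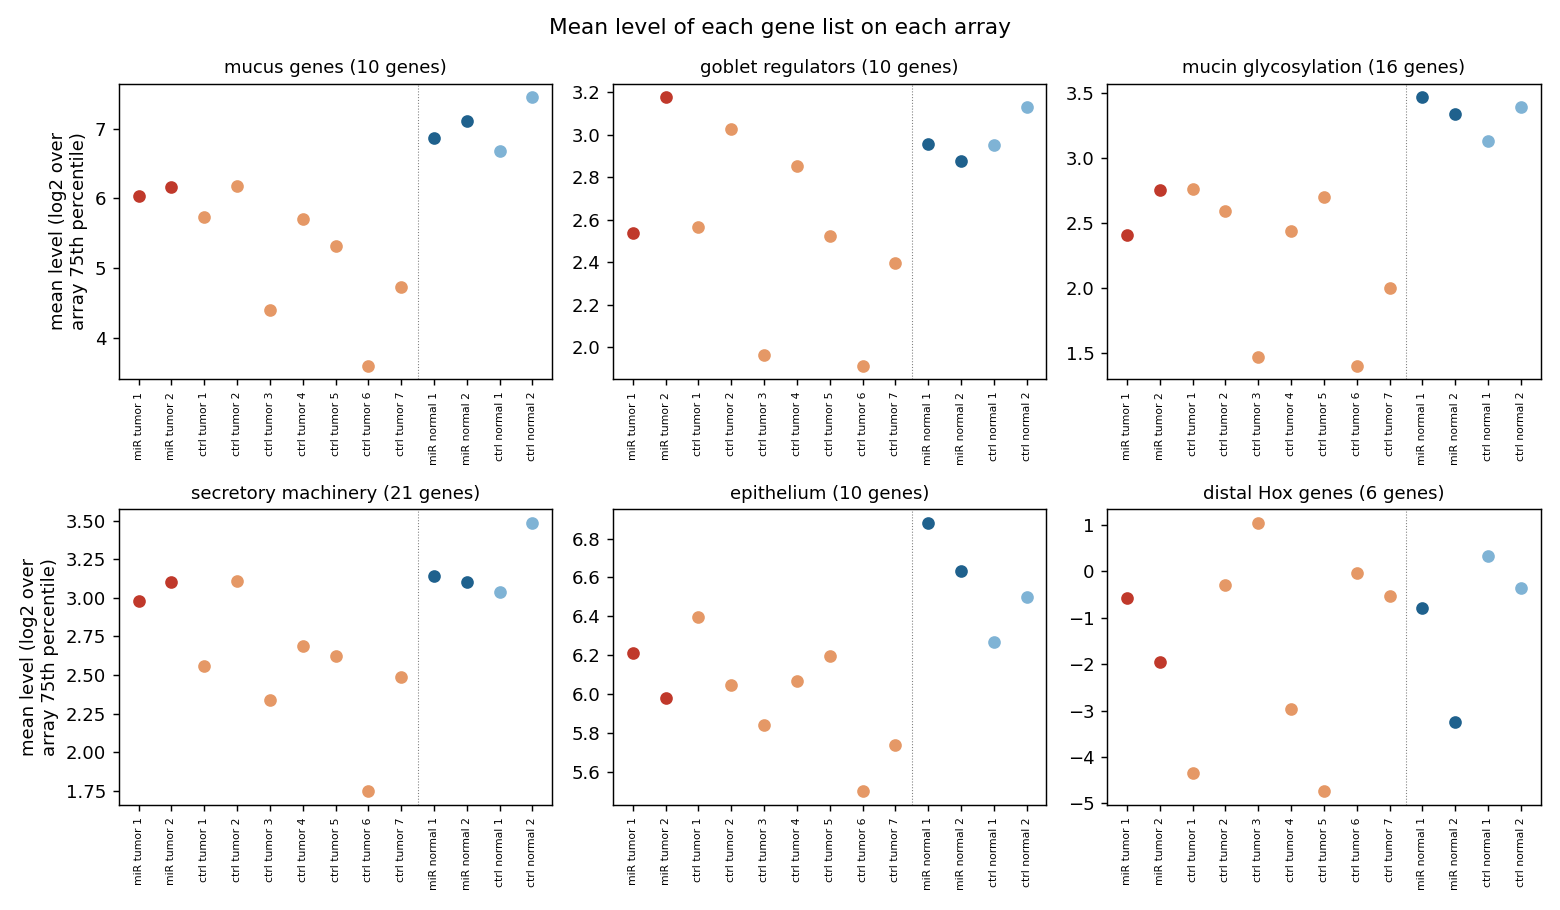
Mean level of 6 gene lists (y axis, log2 over the 75th percentile of the array) on each of the 13 arrays, tumors left and normal tissue right of the dotted line. The mean of the 10 mucus genes was 3.60 to 6.17 in tumors and 6.68 to 7.45 in normal tissue. Control tumors 3 and 6 were low in the mucus, regulator, glycosylation and secretory machinery lists.

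Likeness to the mucus genes was measured as the root mean square difference between the profile of a gene and the mean profile of the 10 genes, each centred on its median over the 13 arrays. The 5 most alike genes outside the set were Tpsg1 (0.26 log2 units), Ggt6 (0.33), Gstt3 (0.36), Galnt10 (0.37) and Sytl4 (0.37). Tpsg1, a membrane-anchored tryptase, had 3.73 ± 0.43 (SD, n = 2) in tumors of microRNA mice and 2.53 ± 0.95 (SD, n = 7) in tumors of control mice, against 4.35 ± 0.05 (SD, n = 2) in normal tissue of microRNA mice and 4.32 ± 0.64 (SD, n = 2) in that of control mice. Each member enters the mean profile it is compared with. Within the set, Agr2 (0.33) and Tff3 (0.39) lay closest to that profile, at ranks 3 and 12 of all 25451 genes. Clca1 (1.74) and Retnlb (1.84) lay farthest from it, at ranks 23200 and 23710, so most genes of the array lay closer than these 2 members.

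The upstream regions of 2 members are shown, because Muc2 and Ang4 are the mucin and the gene with the smallest adjusted p. Promoters were listed in the RefSeq table (GRCm38.p6) for 4 of the 10 genes. The 250 bases before the start are printed for Muc2 (chr7:141690090-141690339, plus strand) and Ang4 (chr14:51773591-51773840, minus strand), with matches to the E-box CAGCTG, the Cdx motif TTTATG, the Gata motif GATAA and the TATA box TATAAA in capitals.
Muc2 upstream: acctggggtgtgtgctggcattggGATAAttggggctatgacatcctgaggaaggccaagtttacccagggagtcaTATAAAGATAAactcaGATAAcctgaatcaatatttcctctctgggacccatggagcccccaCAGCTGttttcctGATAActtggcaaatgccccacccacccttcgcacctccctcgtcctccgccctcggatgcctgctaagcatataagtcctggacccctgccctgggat
Ang4 upstream: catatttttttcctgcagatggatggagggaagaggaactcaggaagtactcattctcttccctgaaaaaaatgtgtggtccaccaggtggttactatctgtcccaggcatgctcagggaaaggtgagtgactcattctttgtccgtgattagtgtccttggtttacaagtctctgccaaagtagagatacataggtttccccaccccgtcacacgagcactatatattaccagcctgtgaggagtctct
Over 300 bases, 50 of them after the start, and on both strands, Muc2 held 1 CAGCTG, 4 GATAA and 1 TATAAA. The last letter of TATAAA is followed directly by a GATAA, and no matches overlapped. Ang4 held none of the 4 motifs, Fcgbp held 1 CAGCTG and Agr2 1 TTTATG on the opposite strand. Of 27025 promoters of this length 16.11% held CAGCTG, 12.15% TTTATG, 25.81% GATAA and 14.16% TATAAA, so a single match is common and says nothing of binding.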

How the data were processed

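Colorectal tissue of 13 samples was hybridised to 1-colour (Cy3) Agilent mouse arrays. The authors deposited the scanner's Feature Extraction output, and per the file headers it was made with version 10.7.3.1 and its processed signal is an intensity per spot, corrected for background. From these deposited intensities a log2 level was computed as log2(processed signal) minus log2 of the array's 75th percentile. Control spots and outlier-flagged spots were left out and spots of a probe averaged. Probes well above background on at least 2 arrays were kept, and the brightest kept probe stood for a gene, which left 25451 genes. Symbols were updated through RefSeq (GRCm38.p6), and probe positions are those of the files (mm9). Linear models over 13 arrays were fitted with limma 3.58.1 (R 4.3.3), one with terms for tissue and group of mice for the tumor effect over both groups, and one with 4 group means for the other comparisons, and p-values were adjusted over all genes (Benjamini-Hochberg, threshold 0.05). The fitting procedure was run on simulated data with independent noise. These held no slide effect and no shared animals, so the run says nothing of how such features bear on the calls. The number of arrays limits the precision. Alternatives were background correction, scaling, filter, blocks and each array left out. Beside the members, the text names the 4 genes with the smallest p of each pathway list, except 1 gene that is not reported here, and Hoxb13. The members and lists were chosen with earlier results of these data known.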

Additional observations from a re-analysis of the deposited data

How the results depend on the processing

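Over both groups of mice 3 of the 10 genes were called, against 5 with normexp background correction, 1 with quantile normalization, 6 with no filter on dim probes, 5 with a filter by group and 6 with trend and robust estimation, and 0 to 5 with 1 array left out. In control mice 3 were called, against 1 with quantile normalization, 1 in a fit of the compared groups alone, 1 with the slide as a block, 6 on slide 2 alone, 1 with the file number as a random block, 0 with the replicate block and 0 to 5 with 1 array left out. In microRNA mice none was called, against 1 (Retnlb) in a fit of the compared groups alone and 2 (Clca1 and Retnlb) with the replicate block. The count of genes above the upper quartile of spread was 6 to 9 with 1 control tumor left out. By the labels same-numbered samples share only a number. The correlation of deviations was 0.42 in microRNA mice, where they also share a slide and a file name number, and -0.19 in control mice. The replicate block called 2478 genes in microRNA mice, against 789 without it.

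The sign turned, as log2 differences, in these cases, none of them called. With quantile normalization, Spink4 was 0.41 over both groups and 0.079 in control mice, Agr2 0.33 in microRNA mice and Muc2 -0.059 in the difference between tumor effects. With median scaling Agr2 was 0.10 in microRNA mice. With the replicate block, Spink4 was 0.18 over both groups, Muc2 0.046 and Sytl2 0.046 in control mice, Muc2 -0.32 and Fcgbp -0.59 between microRNA and control tumors, and the difference between tumor effects was -1.17 for Muc2, -0.18 for Tff3, -0.93 for Fcgbp, -0.0082 for Zg16 and -0.78 for Retnlb. Between microRNA and control tumors, Retnlb was 0.68 with the slide as a block, 3.89 on slide 2 and 0.23 with the file number, and Ang4 -0.0026 on slide 2. In normal tissue, Muc2 was -0.38, Fcgbp -0.31 and Clca1 0.091 with the slide as a block, Clca1 0.000507 with the file number and Spink4 0.078 on slide 2. With 1 array left out, the difference between tumor effects ran from -0.19 to 0.78 for Fcgbp, -0.74 to 0.85 for Muc2 and -0.045 to 1.16 for Retnlb. The microRNA difference in normal tissue ran from -0.61 to 0.29 for Clca1, -0.13 to 0.81 for Fcgbp, -0.40 to 0.11 for Spink4, -0.71 to 0.19 for Sytl2 and -0.042 to 0.98 for Zg16, and in tumors from -0.71 to 0.49 for Retnlb. Tumor effects ran from -0.82 to 0.078 for Sytl2 in control mice, -0.25 to 0.010 for Agr2 in microRNA mice, and -0.34 to 0.082 for Spink4 and -0.072 to 0.43 for Sytl2 over both groups. The cause was not tested.

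Over both groups 7992 genes were called (37.3% higher), 12256 with normexp (20.8%), 7894 with quantile normalization (51.7%), 6458 with median scaling (50.8%), 13008 with no filter (24%) and 2837 with the replicate block. The median of all genes was -0.11, and 0.028 with quantile normalization.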
